A study of Mus musculus with 18 samples.

Results

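Uninfected TKO cells after 4 h were compared with the same cells at 0 h, to see which transcripts differ over 4 h in culture when the p53ER fusion is absent. The comparison was defined by the labels alone: the 6 uninfected arrays at 4 h were set against the 3 uninfected arrays at 0 h. Its changes thus came from 9 of the 18 arrays of the series. The model was fitted to all 18 arrays, so SEs and p-values also drew on the spread of the p53ER arrays. TKO is a mouse cell line whose labels describe its telomeres as dysfunctional, and they give neither its tissue of origin nor what the letters stand for. The remaining 9 arrays are of TKO cells that express p53ER, the tumour suppressor p53 joined to an estrogen receptor, which 4-hydroxytamoxifen (4-OHT) makes functional. All cells grew in DMEM with serum and antibiotics.

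The uninfected groups were cells given vehicle for 4 h (3 arrays), cells given 100 nM 4-OHT for 4 h (3 arrays) and cells at 0 h (3 arrays). The vehicle and 4-OHT arrays were pooled as the 4 h group. The p53ER cells given vehicle for 4 h (3 arrays) and the p53ER cells at 0 h (3 arrays) gave the same step in time on arrays that the uninfected comparison does not share. No group of uninfected cells was kept for 4 h without any addition, so time in culture, handling and the addition itself cannot be told apart. Whether the replicates came from different cultures is not in the labels, and a p-value here therefore reflects only array-to-array spread, which may be technical.

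Values are log2 signals after each array was scaled to the same trimmed mean, and 1 unit on this scale is a doubling of the scaled signal. Before scaling, the trimmed mean was 47.5 to 121 on the 4 h arrays and 49.1 to 106 on the 0 h arrays. The small number of arrays limits precision. Each array was correlated with the remaining 17, and its median r was 0.938 to 0.961 at 4 h and 0.899 to 0.957 at 0 h. The lowest was replicate 2 at 0 h, which also lay at 56.5 on the first principal component, against -13.4 to 3.75 for the other uninfected arrays. Results that rest on that array are therefore given with and without it. When it was left out, the model still held the replicate 2 arrays at 4 h. Their adjustment for replicate number was then fitted in part on p53ER arrays, so such values are not a plain removal of 1 array. The second component (21.8% of the variance) set replicate 3 apart from replicates 1 and 2 in all groups. The actin 3'/5' ratio, a measure of RNA integrity, was 1.07 to 1.22 at 4 h and 1 to 1.2 at 0 h.

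Of the genes described first, Il11 and Lif encode cytokines of the interleukin-6 family. Interleukin-11 (Il11) and leukemia inhibitory factor (Lif) are secreted proteins that bind their own receptors and then share the signal-transducing chain gp130, which activates the transcription factor STAT3. Fibroblast-like cells make both, together with chemokines such as Ccl2 and Cxcl1, when growth factor, NF-kB or AP-1 signalling is active. Cyp51, in contrast, encodes lanosterol demethylase, an enzyme of cholesterol synthesis whose gene is switched on by SREBP factors when sterols are low.

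The promoters of Il11 and Slc16a9, the genes that passed the test, and of Lif and Cyp51, the genes picked to mark the step in time, are printed so that the sites discussed with them can be read. They come from RefSeq (GRCm38.p6), and each window runs from 250 bases before to 50 bases after a gene's start, on the gene's own strand. Il11 lies at chr7:4778092-4778391 (minus strand), Slc16a9 at chr10:70245026-70245325 (plus strand), Lif at chr11:4257318-4257617 (plus strand) and Cyp51 at chr5:4104648-4104947 (minus strand). Capitals mark matches to any of the motifs searched.
Il11: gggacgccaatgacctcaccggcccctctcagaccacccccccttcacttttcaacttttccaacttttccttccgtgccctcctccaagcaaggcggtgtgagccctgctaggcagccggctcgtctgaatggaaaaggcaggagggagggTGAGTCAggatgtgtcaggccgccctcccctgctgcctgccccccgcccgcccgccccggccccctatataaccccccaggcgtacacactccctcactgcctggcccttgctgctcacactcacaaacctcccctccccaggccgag
Slc16a9: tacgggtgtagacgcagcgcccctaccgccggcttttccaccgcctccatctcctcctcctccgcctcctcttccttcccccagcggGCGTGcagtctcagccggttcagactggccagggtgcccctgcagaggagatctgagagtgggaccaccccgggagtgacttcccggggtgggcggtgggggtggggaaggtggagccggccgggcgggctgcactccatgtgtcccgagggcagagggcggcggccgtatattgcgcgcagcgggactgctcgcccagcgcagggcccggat
Lif: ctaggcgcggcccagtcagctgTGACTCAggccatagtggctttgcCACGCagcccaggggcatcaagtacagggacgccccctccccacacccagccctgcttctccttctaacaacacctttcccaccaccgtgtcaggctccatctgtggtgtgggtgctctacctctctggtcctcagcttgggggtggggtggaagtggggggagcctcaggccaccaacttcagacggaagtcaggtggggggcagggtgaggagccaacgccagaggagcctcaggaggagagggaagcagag
Cyp51: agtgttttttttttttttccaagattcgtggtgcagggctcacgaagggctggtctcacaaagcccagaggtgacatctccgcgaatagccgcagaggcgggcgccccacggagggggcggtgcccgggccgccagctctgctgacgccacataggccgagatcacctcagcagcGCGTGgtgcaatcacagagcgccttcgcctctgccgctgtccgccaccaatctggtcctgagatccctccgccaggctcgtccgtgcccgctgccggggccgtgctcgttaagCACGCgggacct

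The AP-1 motif TGANTCA matched once in Il11 (TGAGTCA, 98 bases upstream of the start) and once in Lif (TGACTCA, 228 bases upstream). It was in 7.81% of the 32851 promoter windows in the table. The xenobiotic response motif GCGTG, in 32.4% of windows, matched in Slc16a9 (163 bases upstream), in Lif (204 bases upstream) and at 2 places in Cyp51 (75 bases upstream and 38 bases downstream). There were no matches in these windows to the sterol regulatory element TCACNCCAC (1.24% of windows), the cyclic AMP response element TGACGTCA (1.79%), the ATF4 element TGATGNAA (3.97%), the hypoxia element ACGTG (19.6%), the E-box CACGTG (7.15%, which contains the hypoxia element) or the SRF CArG box (1.63%). Both strands were searched. A second Il11 start in the table, at chr7:4782808-4783107, had no match to any of them. A match describes the letters of the window and is not evidence that a factor was bound.

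At 4 h, Il11 and Slc16a9 rose relative to 0 h and no gene fell, out of 10916 genes tested (0.0183% called by limma, adjusted p under 0.05 with the replicate number as a block). Both calls were lost when replicate 2 at 0 h was left out, when 0 genes passed while 726 lay under an unadjusted p of 0.05, and when the block was left out, when 0 passed and 849 lay under it. With all arrays and the block, 1216 genes lay under an unadjusted p of 0.05, where chance alone gives 545.8, with 476 of them higher at 4 h (4.36%) and 740 lower (6.78%). The median change over all genes was -0.06, and 4490 genes were positive (41.1%). All 6 arrays at 4 h lay above all 3 at 0 h in 269 genes (2.46%) and below them in 364 (3.33%).

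Il11 encodes interleukin-11, a cytokine of fibroblasts and other stromal cells that signals through gp130. Its log2 signal was 9.07, 7.60 and 9.03 with vehicle at 4 h, 8.33, 7.42 and 9.19 with 4-OHT at 4 h, and 5.70, 5.68 and 6.86 at 0 h. Each of the 6 arrays at 4 h lay above the highest array at 0 h, with replicate 2 the lowest in both 4 h groups and replicate 3 the highest at 0 h. On the linear scale this was a scaled signal of 167 to 580 at 4 h, against 47.1 to 112 at 0 h. The means were 8.44 ± 0.78 at 4 h and 6.08 ± 0.67 at 0 h (SD, n = 6 and 3), a 5.12-fold difference (log2 change +2.36, SE 0.30, limma adjusted p = 0.0182). Within replicate numbers 1, 2 and 3 the change was +3, +1.83 and +2.25. Without replicate 2 at 0 h it was +2.47 (limma adjusted p = 0.0639), and without the block it was +2.36 (limma adjusted p = 0.422). With both left out, that array and the block, it was +2.16 (SE 0.63). Leaving out replicate 1 or 3 at 0 h, or replicate 3 with 4-OHT, also ended the call (limma adjusted p = 0.0514, 0.180 and 0.0873), with changes of +2.28, +2.33 and +2.34. The size of the change thus moved little while its call depended on single arrays.

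Slc16a9 encodes a solute carrier of the monocarboxylate transporter family. Its log2 signal was 6.95, 6.99 and 6.96 with vehicle at 4 h, 6.47, 7.07 and 7.33 with 4-OHT at 4 h, and 5.75, 6.15 and 5.88 at 0 h. The groups did not overlap, and the vehicle arrays were closer together than the 4-OHT arrays. The means were 6.96 ± 0.28 at 4 h and 5.93 ± 0.21 at 0 h (SD, n = 6 and 3), a 2.05-fold difference (log2 change +1.04, SE 0.16, limma adjusted p = 0.0413). It was +1.08 without replicate 2 at 0 h (limma adjusted p = 0.114) and +1.04 without the block (limma adjusted p = 0.422). With both left out it was +1.15 (SE 0.23). The call was also lost on leaving out any of 8 of the 9 arrays in turn, the exception being replicate 1 with 4-OHT. The other probe sets for the gene, both dimmer, gave +0.62 (SE 0.24) and +1.11 (SE 0.47).

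Lif and Cyp51, picked from earlier results of these data, were both higher on every 4 h array than on any 0 h array, and neither passed the test. Lif had log2 signals of 8.68, 8.52 and 10.57 with vehicle at 4 h, 8.35, 7.98 and 10.49 with 4-OHT at 4 h, and 6.70, 7 and 7.89 at 0 h. Replicate 3 was the highest in each of the 3 groups, and it stood furthest above the others at 4 h. The change was +1.90 (SE 0.38, limma adjusted p = 0.246), and +2.14 without replicate 2 at 0 h (limma adjusted p = 0.230). A second, dimmer Lif probe set gave +0.53 (SE 0.32), so the probe sets disagree on the size. Cyp51 had log2 signals of 7.56, 7.70 and 7.96 with vehicle at 4 h, 7.49, 7.55 and 7.78 with 4-OHT at 4 h, and 7.36, 7.26 and 6.95 at 0 h. The lowest array at 4 h lay just above the highest at 0 h, so the groups were separate by a narrow gap. Its change was +0.48 (SE 0.13, limma adjusted p = 0.318), made up of +0.17, +0.36 and +0.92 in replicate numbers 1, 2 and 3, and other probe sets gave +0.41 (SE 0.20) and +0.70 (SE 0.39).

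**Figure D1:**
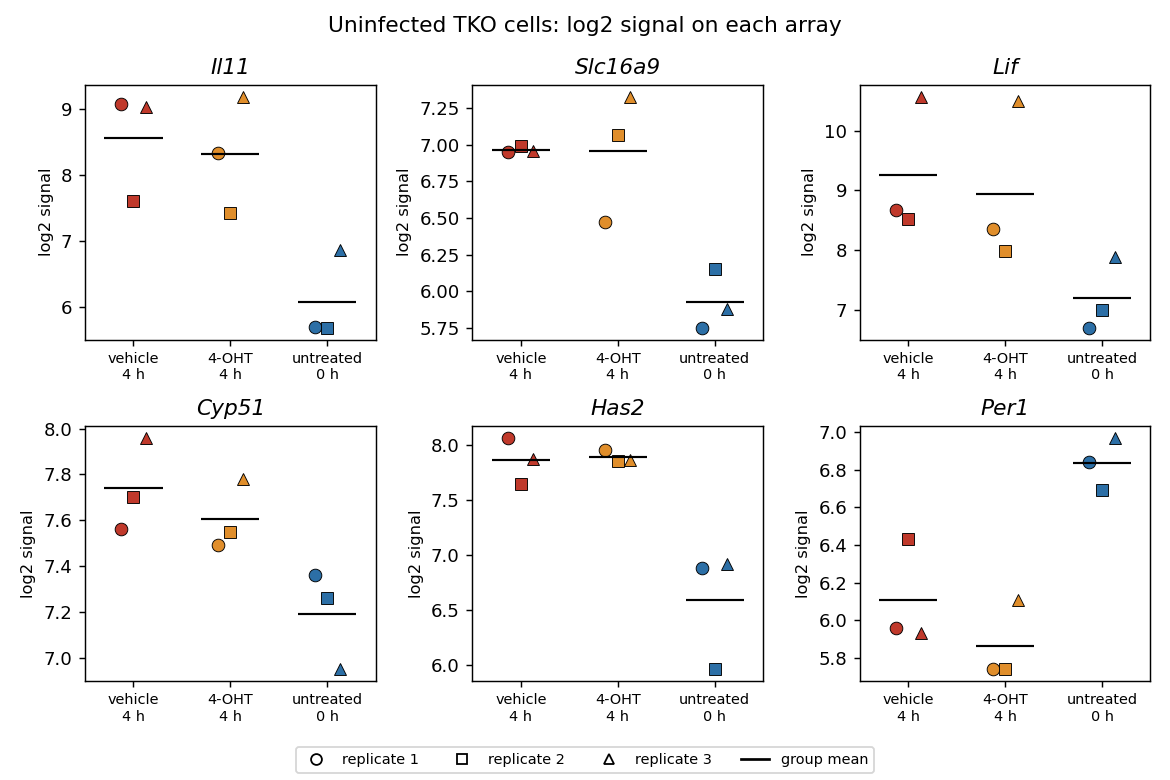
Log2 signal of 6 genes on each uninfected array, with vehicle and 4-OHT at 4 h to the left of 0 h; marker shapes are replicate numbers and horizontal lines are group means, and each panel has its own axis. For Il11, Slc16a9, Lif, Cyp51 and Has2 every 4 h array lies above every 0 h array, and for Per1 every 4 h array lies below.

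The vehicle and 4-OHT arms, which share the same 0 h arrays, are given side by side. With vehicle against 0 h, 0 genes passed, 913 lay under an unadjusted p of 0.05 and the smallest adjusted p was 0.0510, that of Il11 (limma). With 4-OHT against 0 h, 0 passed, 824 had an unadjusted p under 0.05 and the smallest limma adjusted p was 0.162, again that of Il11. The Il11 change was +2.48 (SE 0.34) with vehicle and +2.23 (SE 0.34) with 4-OHT, that of Slc16a9 +1.04 and +1.03 (SE 0.18 each), that of Lif +2.06 and +1.74 (SE 0.44 each) and that of Cyp51 +0.55 and +0.42 (SE 0.15 each). Each of the 4 genes was therefore higher than at 0 h without 4-OHT too.

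Beyond Il11, Slc16a9 and Lif, 7 genes filled the 10 places for higher values by the smallest p among genes with no overlap. None of the 7 passed, and the limma adjusted p of the places filled reached 0.246. Ugdh, which encodes the enzyme that makes UDP-glucuronate for glycosaminoglycans, had 11.13, 11.24 and 11.27 with vehicle, 11.11, 11.27 and 11.22 with 4-OHT, and 10.75, 10.50 and 10.71 at 0 h (+0.56, SE 0.11). Cd44, the cell surface receptor for hyaluronan, had 11.58, 11.55 and 11.47 with vehicle, 11.56, 11.57 and 11.44 with 4-OHT, and 11.26, 10.75 and 10.72 at 0 h (+0.62, SE 0.14). In both genes the 4 h arrays lay close together and the 0 h arrays were more spread. Rai14, an actin-associated ankyrin repeat protein, differed by +0.67 (SE 0.13), the zinc finger gene Zfp469 by +0.85 (SE 0.17), and Rgs2, a regulator of G protein signalling, by +0.76 (SE 0.16). The splicing regulator Tra2a differed by +0.73 (SE 0.16), and Klhl2, a substrate adaptor of cullin-3 ubiquitin ligases, by +1.09 (SE 0.23). Other probe sets for Rgs2 disagreed, at +0.01, +0.84 and -0.83. Without replicate 2 at 0 h the 10 changes lay between +0.49 and +2.47.

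The 10 genes with lower values all missed the threshold, with limma adjusted p between 0.209 and 0.299 and changes between -1.27 and -0.46. Ctps, which encodes CTP synthase of pyrimidine nucleotide synthesis, had 9.93, 9.91 and 10.01 with vehicle, 9.84, 9.84 and 10.10 with 4-OHT, and 10.41, 10.34 and 10.48 at 0 h (-0.47, SE 0.09). Per1, a repressor in the circadian clock that glucocorticoids and cyclic AMP also induce, had 5.96, 6.43 and 5.93 with vehicle, 5.74, 5.74 and 6.11 with 4-OHT, and 6.84, 6.69 and 6.97 at 0 h (-0.85, SE 0.21). In both genes no 4 h array reached the lowest at 0 h. Pml, the scaffold of PML nuclear bodies, differed by -0.74 (SE 0.17), Atp5k, a subunit of mitochondrial ATP synthase, by -0.68 (SE 0.14), and Gys1, the muscle form of glycogen synthase, by -0.63 (SE 0.14). Hilpda, a lipid droplet protein induced by hypoxia, differed by -0.60 (SE 0.15) and the cell polarity gene Pard3 by -0.46 (SE 0.11). The ovarian forkhead factor Foxl2 was at -0.87 (SE 0.20), the RING finger gene Rnf214 at -0.81 (SE 0.20) and the myeloid receptor gene Trem1 at -1.27 (SE 0.29). Trem1, with a mean of 4.89, was close to the dimmest gene tested (4.74). Atp5k was read by 3 probe sets that gave -0.68, -0.47 and -0.03, and Foxl2 by 2 that gave -0.87 and +0.60. Without replicate 2 at 0 h the 10 changes lay between -1.16 and -0.44.

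In p53ER cells, vehicle at 4 h was set against 0 h on 6 other arrays, and 0 of 10916 genes passed (0% called by limma), with 570 at an unadjusted p under 0.05. Of these 6 arrays, vehicle replicate 1 and 0 h replicate 3 also lay apart on the first principal component, at 53.3 and 27.3. The 3 vehicle arrays lay above the 3 at 0 h in 262 genes (2.4%) and below them in 395 (3.62%). Il11 had 7.29, 7.47 and 9.65 in p53ER cells with vehicle, against 5.78, 5.83 and 6.93 in p53ER cells at 0 h, again without overlap. Its change there was +1.95 (SE 0.34, limma adjusted p = 0.219). Lif had 7.17, 8.22 and 11.11 in p53ER cells with vehicle, against 6.36, 6.01 and 8.16 in p53ER cells at 0 h, which overlap, a change of +1.99 (SE 0.44, limma adjusted p = 0.440). Cyp51 differed by +0.57 (SE 0.15) and Slc16a9 by +0.57 (SE 0.18), both without overlap. Of the 10 named higher genes 9 were positive in p53ER cells and 5 of them did not overlap, and of the 10 lower genes 10 were negative and 0 were without overlap. Rgs2, Tra2a and Klhl2 were at -0.01, 0.00 and +0.02 in p53ER cells.

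The difference between the uninfected and the p53ER step in time was tested directly. No gene passed (0% of 10916 called by limma, smallest adjusted p 0.947), and 358 lay under an unadjusted p of 0.05, fewer than the 545.8 that chance alone gives. Uninfected minus p53ER, the difference was +0.40 (SE 0.45) for Il11, +0.47 (SE 0.24) for Slc16a9, -0.09 (SE 0.58) for Lif and -0.08 (SE 0.20) for Cyp51. For Rgs2, Tra2a and Klhl2 it was +0.77 (SE 0.24), +0.73 (SE 0.24) and +1.07 (SE 0.36), so a difference between the cell types was not shown for these either. Of the 476 genes higher at an unadjusted p under 0.05 in uninfected cells, 323 were positive in p53ER cells (67.9%), against 2308 of all 4490 positive genes (51.4%). Of the 740 lower ones, 539 were negative in p53ER cells (72.8%), against 3862 of all 6426 negative genes (60.1%). The p-values that picked these genes drew on the spread of the p53ER arrays too, so the 2 sides are not fully independent. Across all genes, which are not independent replicates, the changes correlated weakly (Pearson r 0.02, Spearman rho 0.12), and with uninfected 0 h replicate 2 and p53ER 0 h replicate 3 left out r was 0.15 and rho 0.16.

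**Figure D2:**
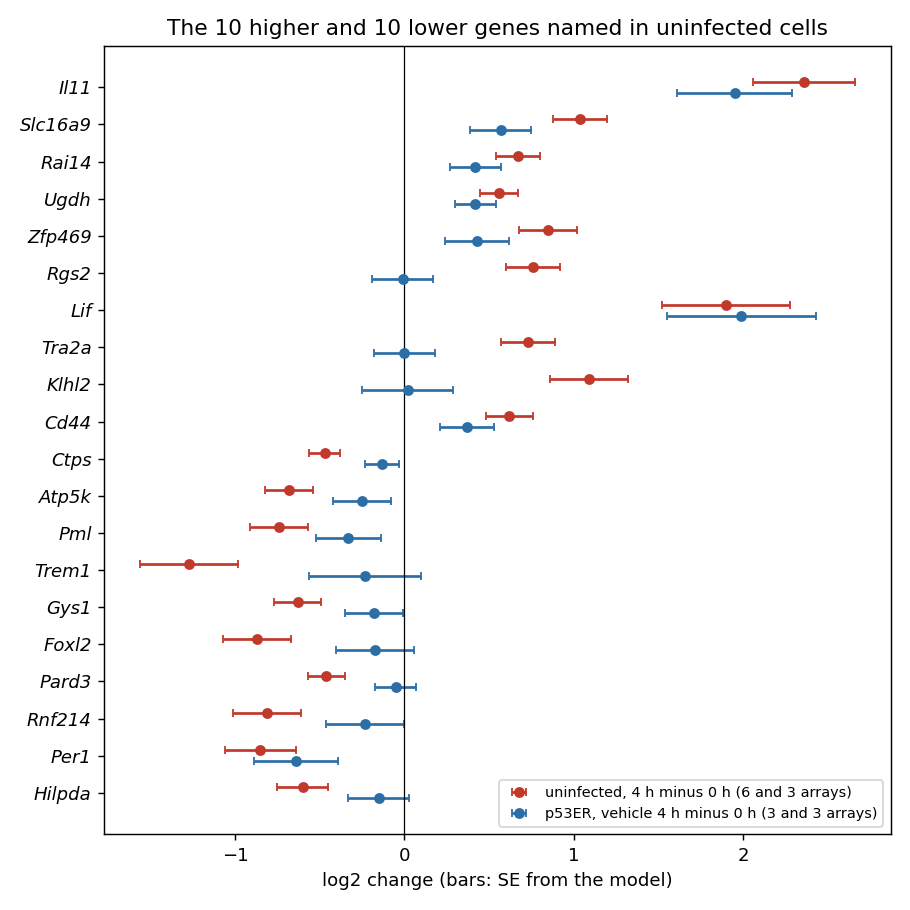
Log2 change of the 10 higher and 10 lower named genes, uninfected cells at 4 h minus 0 h (red) above p53ER cells with vehicle at 4 h minus 0 h (blue); points are model estimates and bars are their SE. Il11 and Lif have the largest values in both, while Rgs2, Tra2a and Klhl2 lie at about 0 in p53ER cells.

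The interleukin-6 family and growth factor list held 32 genes, of which 23 were tested and 1, Il11, passed. Its median was +0.20, with 16 of 23 positive, beside -0.06 and 41.1% over all genes tested, and +0.18 without replicate 2 at 0 h. After Il11 the largest values, looked up afterwards, were those of Il6, which encodes the founding cytokine of the family (+1.95, SE 0.63), Lif and Ereg, which encodes the EGF receptor ligand epiregulin (+1.67, SE 0.56). Il6 had 6.45, 5.75 and 6.56 with vehicle, 5.92, 5.15 and 6.26 with 4-OHT, and 5.76, 2.58 and 3.85 at 0 h. Replicate 2 at 0 h was the lowest, and without it Il6 stood at +1.30 and Ereg at +1.04. Among ligands chosen after their values were seen, the fibroblast growth factor gene Fgf2 had 6.19, 6.07 and 6.04 with vehicle, 6.22, 6.17 and 5.50 with 4-OHT, and 5.04, 4.76 and 5.27 at 0 h. It differed by +1.01 (SE 0.25), and by +1.09 (SE 0.29) in p53ER cells, in both without overlap. Chosen likewise, Vegfa, the vascular endothelial growth factor, stood at +0.64 (SE 0.18) and Hbegf, another EGF receptor ligand, at +0.35 (SE 0.16). The lowest were the hepatocyte growth factor gene Hgf (-0.93, SE 0.40) and Bmp4 (-0.81, SE 0.36). In p53ER cells the list's median was +0.19.

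Chemokine genes, which encode secreted attractants of leukocytes, had a median change of +0.47 (10 of 13 above 0), beside -0.06 and 41.1% over all genes. None of them passed. In replicate numbers 1, 2 and 3 the median was +0.07, +0.43 and +0.64. Without replicate 2 at 0 h the median was +0.24 (9 of 13 above 0). In p53ER cells it was +0.26 (8 of 13), and +0.24, -0.02 and +0.30 in replicate numbers 1, 2 and 3. Cxcl2, a neutrophil attractant, had 6.40, 5.96 and 8.29 with vehicle, 5.76, 6.43 and 8.05 with 4-OHT, and 5.86, 4.85 and 5.04 at 0 h (+1.57, SE 0.45). Its replicate 3 was far above the other 4 h arrays, so that the change was +0.22, +1.34 and +3.13 in replicate numbers 1, 2 and 3. Ccl2, a monocyte attractant, had 10.10, 9.93 and 11.15 with vehicle, 9.94, 9.90 and 10.90 with 4-OHT, and 9.74, 8.35 and 9.75 at 0 h (+1.04, SE 0.29), and +0.71 without replicate 2 at 0 h. Among others chosen after their values were seen, Cxcl1 differed by +0.94 (SE 0.27), Cxcl3 by +0.62 (SE 0.20) and the membrane-bound chemokine gene Cx3cl1 by +0.66 (SE 0.13). Cx3cl1 kept +0.66 without replicate 2 at 0 h and stood at +0.81 (SE 0.15, limma adjusted p = 0.219) in p53ER cells. Its other probe sets disagreed, at +0.25 (SE 0.21), -0.30 (SE 0.49) and -0.70 (SE 0.40), all of them dimmer.

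**Figure D3:**
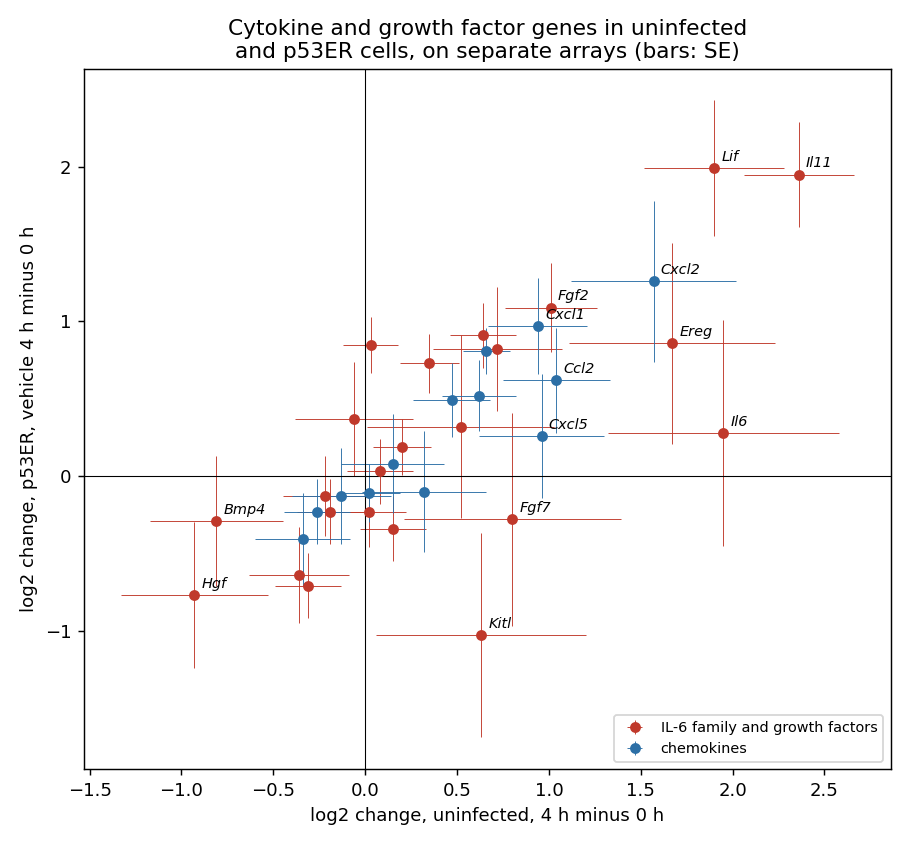
Each point is a gene of the interleukin-6 family and growth factor list (red) or the chemokine list (blue), with its log2 change in uninfected cells (4 h minus 0 h, horizontal) and in p53ER cells (vehicle 4 h minus 0 h, vertical), and bars of 1 SE. Il11, Lif, Cxcl2 and Fgf2 lie high on both axes, while Il6 is at +1.95 in uninfected cells and +0.28 in p53ER cells.

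Lists of genes that report on NF-kB, MAP kinase and immediate early signalling had 0 members past the threshold. The NF-kB feedback list had a median change of +0.11 (11 of 15 above 0), +0.18 without replicate 2 at 0 h and +0.18 in p53ER cells. Its largest value was that of Ptgs2, the inducible cyclooxygenase of prostaglandin synthesis, with 11.19, 10.59 and 11.20 with vehicle, 10.91, 10.72 and 11.21 with 4-OHT, and 10.10, 7.86 and 9.36 at 0 h (+1.86, SE 0.52). All 6 arrays at 4 h were above all at 0 h, and without replicate 2 at 0 h Ptgs2 stood at +1.31, against +0.52 (SE 0.60) in p53ER cells. Tnfaip3, which encodes the NF-kB inhibitor A20, differed by +0.60 (SE 0.19) and by +0.62 (SE 0.21) in p53ER cells, in both without overlap. The MAP kinase feedback list had a median of +0.09 (14 of 18 positive), with Dusp5, a phosphatase of nuclear ERK, at +0.65 (SE 0.23) and the Ras pathway inhibitor Spred1 at +0.62 (SE 0.26). Looked up afterwards, the related gene Dusp1 went the other way, at -0.50 (SE 0.13), and at -0.35 without replicate 2 at 0 h. In p53ER cells Dusp1 stood at -0.43 (SE 0.16). Spred1 had 6.04 on replicate 2 at 0 h, against 7.09 and 7.06 on replicates 1 and 3, and stood at +0.21 without that array. The MAP kinase feedback median was +0.22 without replicate 2 at 0 h (11 of 18 positive) and +0.37 in p53ER cells. Immediate early transcription factors had a median change of +0.04 (14 of 26 above 0), and Egr2 at +1.03 (SE 0.47) and Atf3 at +0.43 (SE 0.45). Atf3 had 3.95 on replicate 3 at 0 h, against 6.21 and 6.57 on replicates 1 and 2, and stood at -0.42 without replicate 3 at 0 h and +0.91 without replicate 2. In replicate numbers 1, 2 and 3 the immediate early median was -0.16, -0.30 and +0.38.

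Targets of the aryl hydrocarbon receptor, a sensor of dioxins and tryptophan derivatives, had a median change of +0.37 (6 of 9 above 0), and 0 of them passed. It was +0.29 without replicate 2 at 0 h and +0.16 in p53ER cells. Cyp1a1, the classical target enzyme, had 7.84, 7.24 and 8.64 with vehicle, 7.08, 7.37 and 9.25 with 4-OHT, and 6.15, 6.67 and 7.93 at 0 h (+0.99, SE 0.30), and it differed by +1.19 (SE 0.35) in p53ER cells. Its groups overlapped because replicate 3 was high at 0 h as well, and within each replicate number the change was positive (+1.31, +0.64 and +1.02). Tiparp, a poly(ADP-ribose) polymerase that dampens the receptor, differed by +0.93 (SE 0.37) and by +0.50 without replicate 2 at 0 h. NRF2 targets, the antioxidant genes, had a median change of +0.05 (11 of 20 above 0). Among them Hmox1, the heme-degrading oxygenase, differed by +0.90 (SE 0.32) without overlap and by +0.91 (SE 0.37) in p53ER cells, and Osgin1 by +0.61 (SE 0.37).

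The cholesterol and fatty acid synthesis list, to which Cyp51 belongs, had a median change of +0.01 (16 of 31 above 0), and 0 of them passed. It was +0.06 without replicate 2 at 0 h and +0.01 in p53ER cells. The largest value was that of Idi1, the isopentenyl diphosphate isomerase, at +0.99 (SE 0.54). Idi1 had 7.89, 8.21 and 8.25 with vehicle, 8.05, 8.08 and 8.41 with 4-OHT, and 7.95, 5.79 and 7.74 at 0 h. It stood at +0.20 without replicate 2 at 0 h, the lowest array by far. The mevalonate kinase gene Mvk differed by -0.55 (SE 0.32). The genes of the SREBP factors themselves, Srebf1 and Srebf2, looked up after the values were seen, were both at -0.20, and Srebf1 was at +0.05 without replicate 2 at 0 h. Cyp51 thus stood among genes of its pathway with values on both sides of 0. Sterol export and LXR targets had a median of +0.08 (4 of 7 positive), with the sterol transporter Abcg1 at -0.38 (-0.77 without replicate 2 at 0 h) and the receptor Nr1h3 at +0.26.

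Interferon response genes lay on the lower side, with 3 of 25 positive and a median of -0.32, beside 41.1% and -0.06 over all genes, and 0 passed the test. The median was -0.49 without replicate 2 at 0 h, with 3 of 25 positive, and -0.36 in p53ER cells, with 2 of 25 positive. In replicate numbers 1, 2 and 3 it was -0.45, -0.35 and -0.13, and it was -0.26 with vehicle and -0.29 with 4-OHT. The -0.49 thus lay below the medians of replicate numbers 1 and 3, which kept their uninfected 0 h arrays in that fit. It ran in part through the block, which p53ER arrays helped to fit, so a stronger fall without that array was not shown. Tap1, the peptide transporter of antigen presentation, had 6.19, 5.57 and 6.05 with vehicle, 6.18, 4.89 and 5.75 with 4-OHT, and 6.72, 5.87 and 6.52 at 0 h (-0.60, SE 0.26, limma adjusted p = 0.434). The values overlapped between groups and were lower at 4 h within each replicate number. Usp18, the protease that removes ISG15 and restrains the interferon receptor, differed by -0.59 (SE 0.41), by -0.85 without replicate 2 at 0 h and by -0.80 (SE 0.47) in p53ER cells. Within replicate numbers 1 and 3 the change of Usp18 was -0.61 and -0.48. Looked up after the values were seen, 1 gene of the list, the interferon regulatory factor gene Irf1, had all 4 h arrays below all 0 h arrays (-0.33, SE 0.11), which is near the share of 3.33% over all genes. The highest was Rsad2, which encodes viperin, at +0.57 (SE 0.32).

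Mitosis genes had a median change of +0.29 (24 of 28 above 0), and 0 of them passed. In replicate numbers 1, 2 and 3 the median was +0.29, +0.09 and +0.13. Replicate 2 at 0 h was the lowest 0 h array for 12 of the 28 genes and the highest for 15, and without it the change was lower for 15 genes and higher for 13. The list's largest changes were among those lower without it. Mki67, the proliferation antigen Ki-67, had 9.21, 9.54 and 8.95 with vehicle, 9.39, 9.54 and 9.14 with 4-OHT, and 9.42, 6.02 and 8.91 at 0 h. Replicates 1 and 3 at 0 h thus lay within the range of the 4 h arrays or just below it. The change of Mki67 was +1.18 (SE 0.94) with that array and -0.22 without it. Bub1, a kinase of the spindle checkpoint, was at +1.06 (SE 0.65) with it and +0.01 without. In the other direction, and chosen after its values were seen, the centromere histone gene Cenpa had 8.54, 9.37 and 8.65 at 0 h and was at +0.31 with that array and +0.52 without it. The list's median without it was +0.11, with 21 of 28 positive, and in p53ER cells it was -0.05. G1/S and DNA replication genes had a median of -0.11 (8 of 30 positive) and -0.09 without that array, on which the DNA polymerase gene Pola1 stood at 2.40, against 6.83 and 6.79 on the other 0 h arrays. Pola1 differed by +1.66 (SE 0.91) with it and +0.01 without it, and the cyclin gene Ccne2 by +0.54 with it and -0.28 without it. The ribosome biogenesis median was +0.10 both with that array (19 of 32 positive) and without it (25 of 32 positive), and +0.19 in p53ER cells. Its largest values, Nop58 (+0.93) and nucleolin Ncl (+0.76), were +0.25 and +0.22 without it.

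**Figure D4:**
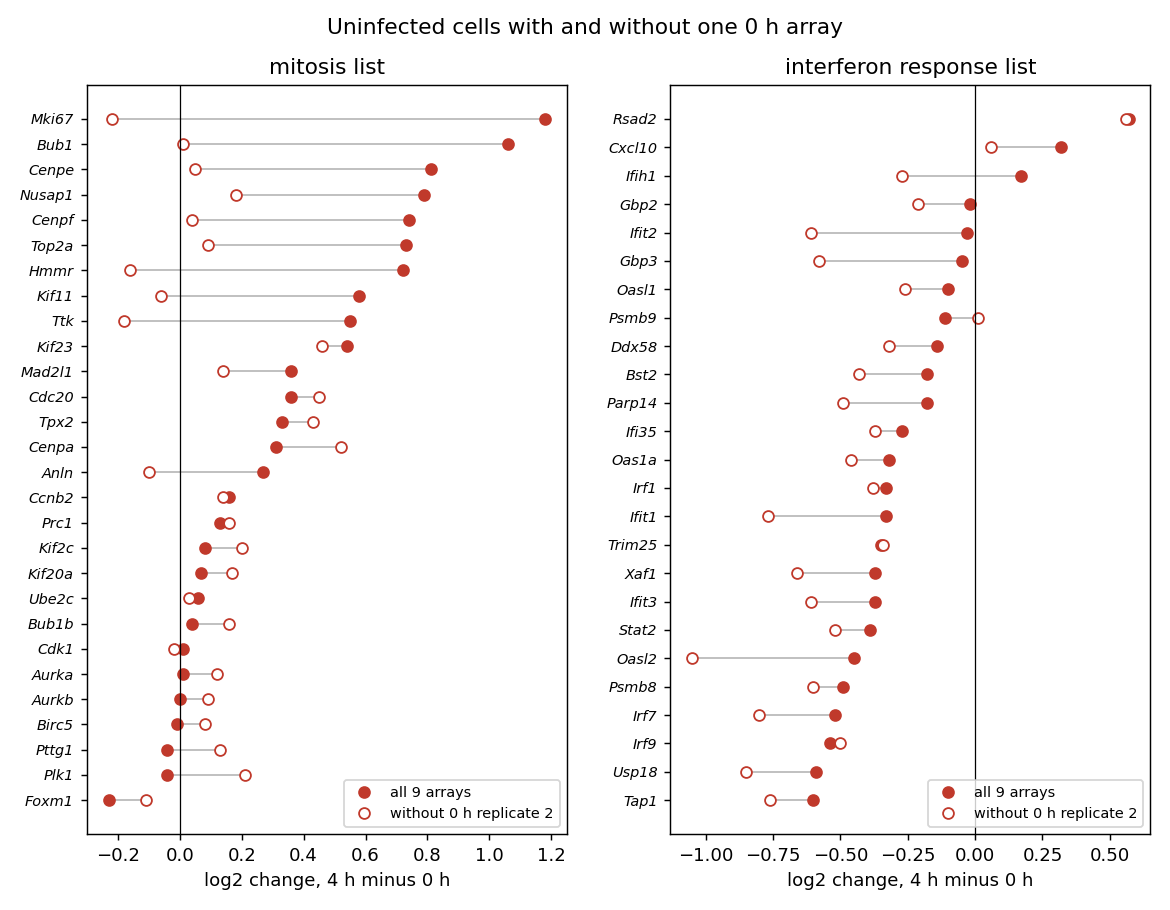
Log2 change (4 h minus 0 h, uninfected cells) of each gene of the mitosis list (left) and the interferon response list (right), with all 9 arrays (filled) and without replicate 2 at 0 h (open). Without that array 15 of 28 mitosis values are lower, among them the largest (Mki67 +1.18 and -0.22), and 13 are higher, while 22 of 25 interferon response values are lower (list median -0.32 and -0.49). Open values ran in part through the block, which p53ER arrays helped to fit.

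Clock genes had a median change of +0.08 (9 of 17 above 0), and values in both directions. The median was -0.01 without replicate 2 at 0 h (8 of 17 above 0) and -0.14 in p53ER cells (6 of 17). Cry1, a repressor of the clock, differed by +0.95 (SE 0.29) without overlap, and by +0.66 (SE 0.33) in p53ER cells, also without overlap. Its mean of 4.87 was close to that of the dimmest gene tested (4.74). Clock itself was at +1.13 (SE 0.65), and +0.30 without replicate 2 at 0 h, where it stood at 4.61. Chosen after their values were seen, the activator Arntl was at +0.94 (SE 0.31) and the repressor Cry2 at -0.80 (SE 0.30), beside -0.85 for Per1. In p53ER cells Arntl was at -0.03 and Cry2 at -0.32. Glucocorticoid targets, which hold Per1, had a median of -0.04 (5 of 11 positive), with the metallothionein gene Mt2 at +0.56 (SE 0.22).

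Stress and metabolic lists had medians between -0.13 and +0.03, with 0 past the threshold. Glycolysis and hypoxia genes had a median of -0.13 (8 of 27 positive), and +0.01 without replicate 2 at 0 h. The lactate exporter Slc16a3 was at -0.70 and the histone demethylase Kdm3a at +0.49, and they stood at -0.51 and +0.32 without that array. Heat shock genes had a median of -0.07 (6 of 17 positive) with it and +0.02 (11 of 17) without it. The chaperone genes Hsp90aa1 and Dnajb4 were at +0.73 and +0.66 with it and at +0.01 and +0.10 without it. Unfolded protein response genes had a median of +0.03 (11 of 21), and the chaperones Hsp90b1 and Dnajb9 were at +0.53 and +0.44 with that array and at -0.09 and -0.06 without it. The ATF4 and amino acid response had a median of -0.02 (11 of 26) with that array and the same median without it. The cystine transporter Slc7a11 was at +0.83 and the kinase inhibitor Trib3 at -0.62, against +0.62 and -0.39 without it.

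For p53 targets the median was -0.05 (11 of 31 positive), and +0.03 without replicate 2 at 0 h (17 of 31). Pmaip1, which encodes the cell death factor Noxa, had 2.55 on that array, against 4.27 and 3.57 on the other 0 h arrays. Pmaip1 differed by +1.01 (SE 0.46) with that array and by +0.54 without it, and by -0.09 in p53ER cells. Its mean of 4.87 was close to that of the dimmest gene tested (4.74). The cell cycle inhibitor Cdkn1a differed by +0.73 (SE 0.25) with replicate 2 at 0 h and by +0.82 without it. FoxO targets had a median of -0.09 (8 of 18), and -0.28 (6 of 18) without that array, with the insulin receptor substrate Irs2 at -0.74 and Foxo4 at -0.63. YAP and SRF targets had -0.03 (8 of 22) with it and +0.03 (12 of 22) without it, while in p53ER cells they had +0.11 (20 of 22). Their members Filip1l and Thbs1, which encodes thrombospondin, were at +0.69 and +0.31 with it and at -0.04 and +0.18 without it. TGF-beta and BMP targets had a median of -0.06 (7 of 17). Skil, a repressor of SMAD factors, was at +0.82 with that array, +0.14 without it and +0.02 in p53ER cells, while Pmepa1 was at +0.67, +0.84 and +0.81. Wnt and Notch targets had a median of +0.02 (6 of 12), with Lef1 at +0.57 and the Notch feedback gene Nrarp at -0.49, or -0.25 without that array.

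Extracellular matrix and protease genes had a median change of -0.10 (10 of 28 above 0), and 0 of them passed. Has2, which encodes the main hyaluronan synthase of mesenchymal cells, had 8.07, 7.65 and 7.88 with vehicle, 7.96, 7.86 and 7.87 with 4-OHT, and 6.88, 5.96 and 6.92 at 0 h (+1.29, SE 0.32, limma adjusted p = 0.295). All 4 h arrays were close together and well above the highest at 0 h. Without replicate 2 at 0 h Has2 stood at +0.97, in p53ER cells at +0.69 (SE 0.36), and its second probe set gave +1.83 (SE 0.65). Postn, the matrix protein periostin, was at +0.91 (SE 0.83) with that array and -0.14 without it.

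**Figure D5:**
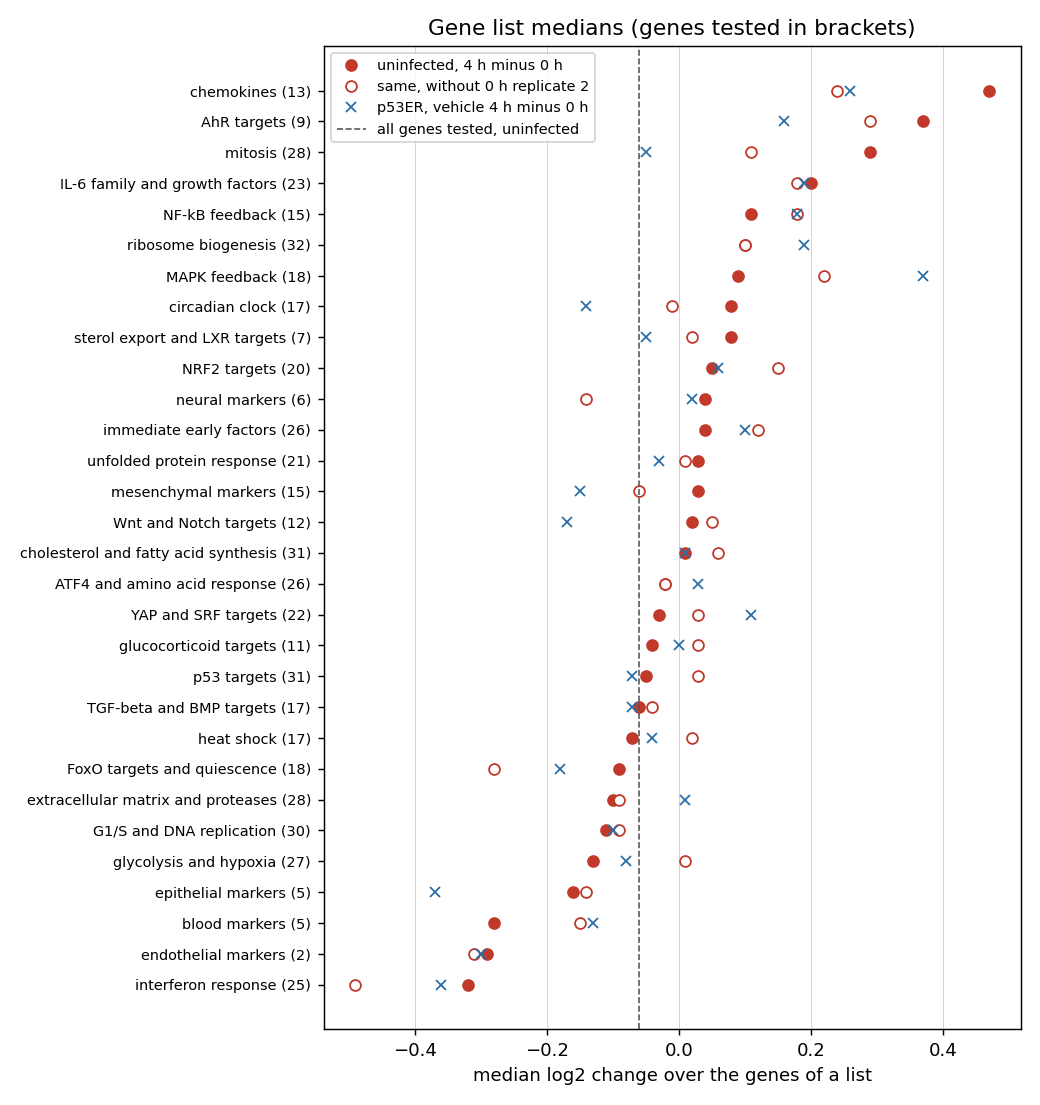
Median log2 change of each gene list, with the number of genes tested in brackets: uninfected cells (filled red), the same without replicate 2 at 0 h (open red) and p53ER cells with vehicle (blue crosses); the dashed line is the median of all genes tested in uninfected cells (-0.06). Lists to the right in all 3 include chemokines, aryl hydrocarbon receptor targets, the interleukin-6 family and growth factors, and MAP kinase feedback. Lists to the left in all 3 include the interferon response and the epithelial, blood and endothelial markers.

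The p53ER medians were also taken without the arrays that lay apart. These were vehicle replicate 1 and 0 h replicate 3 of p53ER cells, and replicate 2 at 0 h of uninfected cells. The medians were then +0.32 for the interleukin-6 family and growth factors, +0.22 for chemokines, +0.41 for aryl hydrocarbon receptor targets, -0.43 for the interferon response and -0.33 for mitosis. Each of the first 4 kept the sign it had with all p53ER arrays, and mitosis was negative in both. With these arrays out, only replicate number 2 had both a vehicle and a 0 h array of p53ER cells. The rest of each change therefore ran through the block, which arrays of the other groups helped to fit.

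The labels give no tissue, so cell type markers were read for the cells themselves and for others that could be present. The summed scaled signal of the 15 mesenchymal markers was 29665 to 39009 at 4 h and 31935 to 45382 at 0 h. It was 180 to 368 at 4 h and 256 to 373 at 0 h for 5 epithelial markers, 229 to 284 and 290 to 324 for 5 blood markers, 66 to 96 and 92 to 121 for 2 endothelial markers, and 358 to 645 and 414 to 644 for 6 neural markers. The blood sum, though small, did not overlap between the times, and the part of such cells in the results was not tested. Of the defining markers Cdh1, Ptprc and Pecam1, none was among the genes bright enough to be tested. No marker passed the test. The mesenchymal median was +0.03 (11 of 15 positive) with replicate 2 at 0 h and -0.06 (7 of 15) without it, and the transcription factors Prrx1 and Zeb1 were at +0.89 and +0.36 with it and at +0.28 and +0.06 without it. The epithelial median was -0.16 with it (1 of 5 positive, highest +0.11) and -0.14 without it (2 of 5 positive). Grhl2 was at -0.72 and Krt5 at -0.29, the second at -0.14 without it. The blood median was -0.28 with it and -0.15 without it (Cd68 -0.39 and -0.15, Lyz2 -0.33). The endothelial median was -0.29 with it and -0.31 without it (Kdr -0.47, Flt1 -0.10, the second at -0.19 without it). The neural median was +0.04 with it and -0.14 without it, and Gfap and Mbp were at +0.45 and -0.33 with it and at -0.14 and -0.09 without it. In RNA from whole cultures, fewer cells of a type and less RNA per cell cannot be told apart.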

How the data were processed

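Expression was measured on 18 Affymetrix arrays, 9 of them of uninfected cells. The deposited values are signal intensities, linear in scale, from MAS5 (version not given in the sources used here), per the submitters' processing notes. All arrays were brought to 1 shared 2% trimmed mean (82.7), and log2(signal + 4.13) was used, the offset being 5% of that mean. Of 45101 probe sets, 34958 had 1 annotated gene, 932 had several and 9211 were not listed. Each of 18194 genes was read by its brightest probe set, and the upper 60% by mean signal, 10916 genes, were tested.

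A linear model of the 6 group means with the replicate number as a block was fitted to all 18 arrays (10 residual degrees of freedom) with limma 3.58.1 in R 4.3.3, with a trended and robust variance prior. Two-sided p-values were adjusted by Benjamini-Hochberg over all genes tested, with a threshold of 0.05. The statistics were tested on simulated data with independent noise, no replicate effect and no outlying array. That check therefore does not bear on calls that depend on the block or on single arrays.

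The comparison, its marker genes, the 30 gene lists (654 entries, 540 different genes tested) and the alternatives were chosen with earlier results of these data known. Genes were named by this rule: Lif and Cyp51; up to 15 genes each way past the threshold without overlap between the times, filled to 10 by the smallest p among genes without overlap; and, for every list, its passing genes (5 at most) or else the 2 that changed most in size. Any other gene was picked with its values in view, as stated beside it.

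The block was part of the comparison as defined. Deviations from the group means correlated between uninfected 4 h and 0 h arrays of the same number by 0.34, 0.05 and 0.40 with vehicle and by 0.39, 0.08 and 0.41 with 4-OHT, for replicates 1, 2 and 3. What a number stands for is not in the labels, so results without the block are given beside the calls.

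Alternatives were quantile normalization, no offset or a larger one (20%, 16.5), no filter or the upper 40% of genes, all probe sets, no replicate block, only the groups compared, a plain variance prior, array weights, and leaving out arrays. Leaving out replicate 2 at 0 h together with the block was added after the data were seen. Promoter sequences came from RefSeq (GRCm38.p6). Figures were drawn with matplotlib 3.10.9.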

Additional observations from a re-analysis of the deposited data

How the results depend on the processing

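Of the 10916 genes tested at 4 h against 0 h in uninfected cells, the main setting called 2 (Il11 and Slc16a9). The count was 1 with quantile normalization, with the larger offset, without the filter on dim genes, with a plain variance prior and with array weights, that gene being Il11 each time. It was 4 over all probe sets (Il11 and, named after their values were seen, Kcnma1, Zfp40 and Tsc22d1). It was 0 without the replicate block, with only the groups compared, without replicate 3 of every group, and without both replicate 2 at 0 h and the block. The cause was not tested. It was 3 without the 3 arrays that lay apart (Psrc1, Il11 and Has2), and 2 with no offset and with the stricter filter. Leaving out 1 array at a time gave 0 to 4 genes, 0 without 4-OHT replicate 3 or 0 h replicate 2 or 3, and 4 without 0 h replicate 1 (Arhgap42, Ccl2, Rsbn1 and Zbtb48). Over 22 alternatives the log2 change of Il11 stayed between 2.13 and 2.5, with adjusted p between 0.00336 and 0.999, and it passed in 14. Slc16a9 stayed between 0.91 and 1.15 and passed in 3. The vehicle arm called 1 gene with no offset, without the filter, with the stricter filter and with array weights, and 2 over all probe sets. The 4-OHT arm called 1 with only the groups compared and 1 without the 3 arrays. Leaving out 1 array gave 0 to 2 for the difference between cell types (2 without uninfected 0 h replicate 1) and 0 to 2 in p53ER cells (2 without vehicle replicate 1, 1 without 0 h replicate 3). Without the block the counts of the 2 arms, the p53ER cells and the difference were 0, as they were with it. Some gene values changed sign. Without replicate 2 at 0 h these were Hsp90b1 (-0.09), Dnajb9 (-0.06), Filip1l (-0.04), Ccne2 (-0.28), Mki67 (-0.22), Postn (-0.14) and Gfap (-0.14). Their highest values with 1 array left out were 0.85, 0.84, 1.23, 1.16, 1.94, 2.01 and 0.79, in that order of genes. Without that array and the block, Ccne2 was at -0.12 and Gfap at -0.17. Without the 3 arrays, Dnajb9 was at -0.03, Ccne2 -0.21, Mki67 -0.04, Postn -0.03 and Gfap -0.13. Without replicate 3 of every group, Atf3 was at -0.49, Osgin1 at 0.00, Lyz2 at 0.02 and Flt1 at 0.31. Without 0 h replicate 3, Atf3 was at -0.42 and Flt1 at 0.27 (lowest with 1 array left out -0.39), and with quantile normalization Flt1 was at 0.04. The medians of the chemokine, aryl hydrocarbon receptor, interferon response and mitosis lists kept their sign under all 22 alternatives, at 0.14 to 0.64, 0.22 to 0.60, -0.54 to -0.16 and 0.01 to 0.46. The circadian clock median, at -0.33 to 0.25, changed sign in 8 of them. Signals near the dimmest gene tested rest on little light above background, so folds of such genes depend on the offset.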

Other observations

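The values of 4 genes known for the synthesis or binding of hyaluronan, a sugar polymer of the matrix, were picked after they were seen, with no list and no test behind the choice. Has2 (+1.29), Ugdh (+0.56), which makes one sugar precursor, and the receptor gene Cd44 (+0.62) each had all 6 arrays at 4 h above all 3 at 0 h, as did 2.46% of all genes tested. Uap1, which makes the other precursor, UDP-N-acetylglucosamine, had 7.66, 7.75 and 7.41 with vehicle, 7.47, 7.68 and 7.43 with 4-OHT, and 7.42, 6.88 and 6.68 at 0 h (+0.57, SE 0.14), so that 1 array at 4 h lay just below the highest at 0 h. The other Uap1 probe sets, all dimmer, gave +0.08, +0.60, +0.33 and -0.02. In p53ER cells the same genes were at +0.69 (SE 0.36), +0.42 (SE 0.12), +0.37 (SE 0.16) and +0.21 (SE 0.16). None of the 4 passed the test in either cell type.

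A few other genes, also chosen after their values were seen, had like values in both cell types without passing. Arc, an activity-regulated gene known from neurons, stood at +1.18 (SE 0.28) in uninfected cells and +1.28 (SE 0.33) in p53ER cells. Chst11, a chondroitin sulfotransferase, stood at +0.68 (SE 0.17; a dimmer probe set +0.32) and +1.03 (SE 0.20), and the retinoic acid-induced receptor gene Gprc5a at +0.49 (SE 0.11) and +0.67 (SE 0.13), for uninfected and p53ER cells in that order.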
